A study of Mus musculus with 10 samples.

Results

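The genes described are the potassium channel genes of the mouse, taken as every gene whose single annotated symbol starts with Kcn. The rule found 84 such genes among 18193 genes with 1 symbol, and they were covered by 167 probe sets. Each gene was represented by its probe set with the highest mean log2(signal + 16) over all arrays. Of the 84 genes, 47 were bright enough to be tested and 37 fell among the dimmest 40% of all genes. Their transcripts were read in the preoptic region, at the front of the hypothalamus, cut out by laser capture microdissection from 10 mice of the DBA1/lacJ strain, with 1 array per mouse. All 10 mice had received 120 µg/kg of lipopolysaccharide (LPS), a bacterial cell wall component, into the peritoneum and were examined 5 h later. The groups were 5 mice labelled wild-type (WT) and 5 labelled mPGES-1 KO (knockout, KO), named for microsomal prostaglandin E synthase-1, the product of Ptges, an enzyme induced in inflammation that forms prostaglandin E2. No mice without LPS were analysed here, the labels give no age, and the extent of the deletion is not stated in them.

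Potassium channels let potassium ions leave the cell and so hold the membrane at rest, end each action potential and set how often a neuron fires. Their pores are built from several families: voltage-gated subunits (Kcna, Kcnb, Kcnc, Kcnd, Kcnh and Kcnq), calcium- and sodium-activated subunits (Kcnma, Kcnn and Kcnt), inward rectifiers (Kcnj) and leak channels with paired pore domains (Kcnk). Auxiliary subunits (Kcnab, Kcne, Kcnip and Kcnmb) and electrically silent subunits (Kcnf, Kcng, Kcns and Kcnv) change the gating or placement of the channels they join. In the preoptic region, prostaglandin E2 acts on neurons that govern body temperature, and the firing of such neurons depends on their potassium conductance.

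The deposited values were probe set intensities, scaled so that every array had the same trimmed mean, 200.002. The deleted gene, Ptges, checks the labels first. Its brightest probe set was at 26.4, 2.75, 31.0, 57.8 and 35.9 on the WT arrays and 61.5, 39.2, 23.6, 40.3 and 22.2 on the KO arrays, in replicate order. Another Ptges probe set averaged 49.96 ± 24.5 (SD, n = 5) in KO against 4.54 ± 3.09 (SD, n = 5) in WT. The groups did not overlap in it, with WT arrays up to 9.33 and KO arrays from 17.5. The last Ptges probe set averaged 40.2 in KO against 13.4 in WT, and there the groups overlapped. No Ptges probe set had a lower mean in KO. A probe set outside the deleted part checks no label, so the groups are named as labelled and each direction below rests on the labels. Whether the labels were exchanged was not tested. Spike-in control RNAs were bright on 7 arrays, while WT replicates 2 and 5 and KO replicate 3 showed almost none. Array medians were 32.0 to 44.8 in WT and 24.7 to 29.9 in KO, without overlap. Among preoptic and hypothalamic markers, 5 of 7 measured genes were bright enough to be tested (Gal, Nts, Esr1, Calcr and Six3), while Trh and Nkx2-1 were among the dim genes. Some markers of the neighbouring striatum were also present: the mean log2 level of 5 tested striatal genes was 7.77 ± 0.23 (SD, n = 5) in WT and 8.76 ± 0.64 in KO. Of these, 4 were at unadjusted p below 0.05 on the higher side (7.95% of all genes tested), with Tac1 past the adjusted threshold. Rgs9 went the other way, at -0.25 (SE 0.23), and the striatal markers Drd2 and Ppp1r1b were among the dim genes. In bulk tissue, fewer cells of a type and less RNA per cell cannot be told apart.

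None of the 47 tested potassium channel genes passed limma's threshold of a Benjamini-Hochberg adjusted p below 0.05 over all 10916 genes tested, where 12 genes or 0.11% passed (0.0275% on the higher side and 0.0824% on the lower). At an unadjusted p below 0.05 there were 10 of them, 21.3%, against a background of 18% of all genes tested, so the share lay near the background. On the higher side in KO there were 6 (Kcnab1, Kcna2, Kcna4, Kcnj10, Kcns2 and Kcnt2; background 7.95%), and on the lower side 4 (Kcnip3, Kcnj11, Kcnj16 and Kcnmb2; background 10.1%). In 0 of the 47 did the 5 arrays of one group lie wholly apart from the other 5, against 5.01% of all genes tested (1.88% with KO higher and 3.13% with KO lower). The differences split 25 above and 22 below 0, with a median of 0.020 on the log2 scale against -0.019 over all genes tested. The median size of a difference was 0.28, against 0.22 over all genes, and the members also spread more within a group, with a median within-group SD of 0.41 against 0.32. Pore-forming subunits had 16 of 34 tested genes above 0, auxiliary subunits 6 of 9, silent subunits 2 of 2 and noncoding transcripts 1 of 2. Brightness moved with direction: above the median level of tested genes, 11 of 17 members were higher in KO (54% of all genes in that range), and below it 14 of 30 were (41.7% of all genes in that range).

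**Figure D1:**
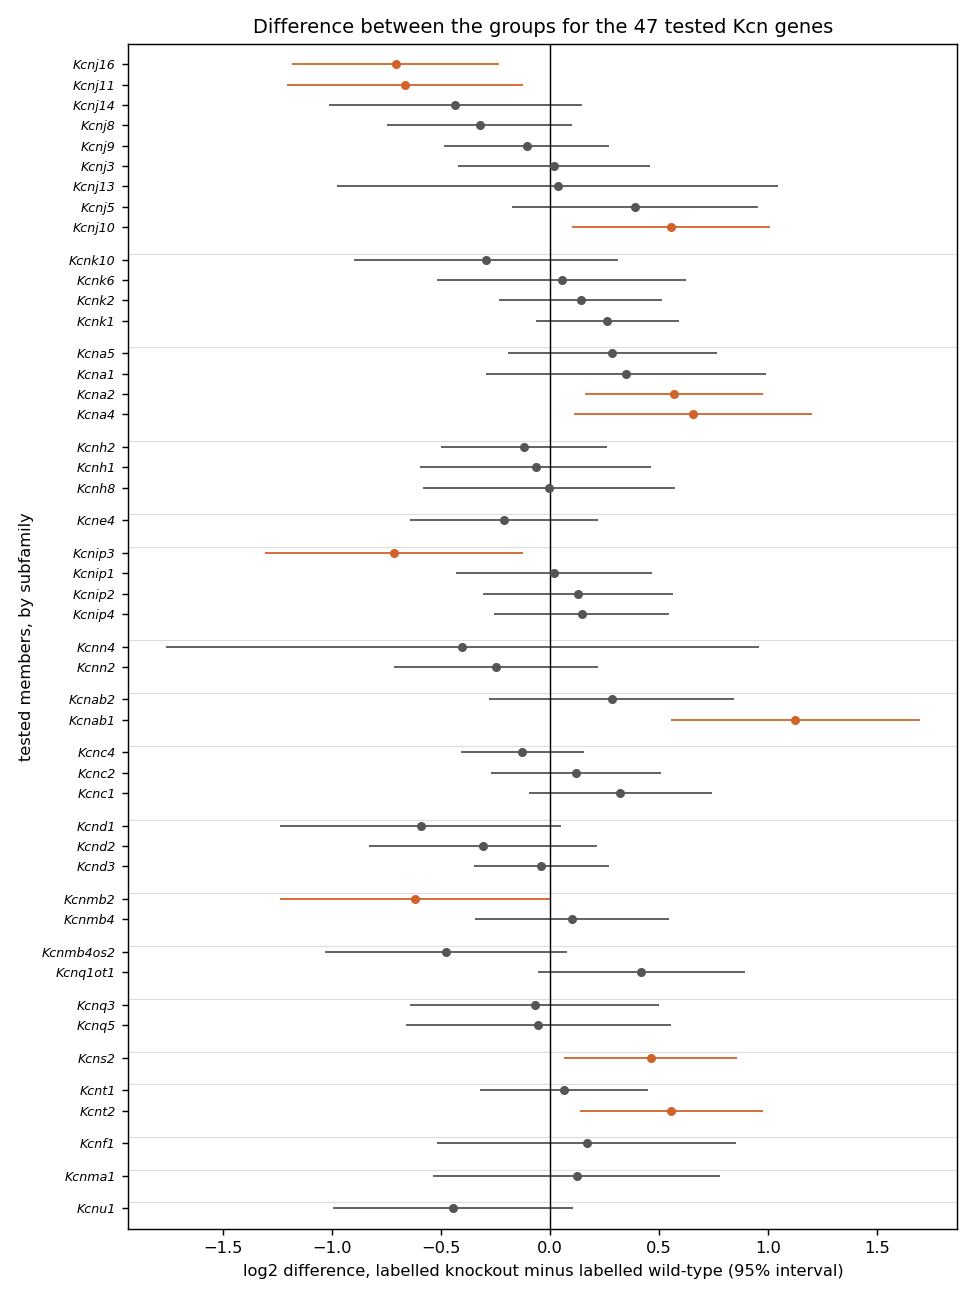
Log2 difference between the groups, labelled knockout minus labelled wild-type, with its 95% interval for each of the 47 tested potassium channel genes, grouped by subfamily. Orange marks the 10 genes at unadjusted p below 0.05; 0 passed the adjusted threshold, and the differences run from -0.72 (Kcnip3) to 1.13 (Kcnab1).

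Signal over the family ran from the bright glial inward rectifier Kcnj10, at percentile 96.7 of all genes, down to Kcnj2, which gave a signal of 0.69 to 2.29 on every array. Signals of different probe sets are not on a common scale of transcript amount, so this order is of signal and not of transcript number. After Kcnj10 came the leak channel gene Kcnk1 (percentile 92.7), the axonal channel gene Kcna2 (92.4), the M-type channel gene Kcnq5 (90.2), the fast-spiking channel gene Kcnc1 (88.0), Kcnj9 (87.7), the A-type channel gene Kcnd3 (87.2) and Kcnc4 (86.2). All 3 Kcnc, all 3 Kcnd, all 4 Kcnip and both Kcnt genes measured were above the brightness limit. Kcnip3 was just inside that limit, at a mean log2 level of 5.894, and Kcna6 just outside, at 5.876. In contrast, 0 of 3 Kcng, 0 of 2 Kcnv and 1 of 5 Kcne genes were above it, as were 9 of 15 Kcnj, 4 of 12 Kcnk, 4 of 7 Kcna and 3 of 6 Kcnh genes.

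**Figure D2:**
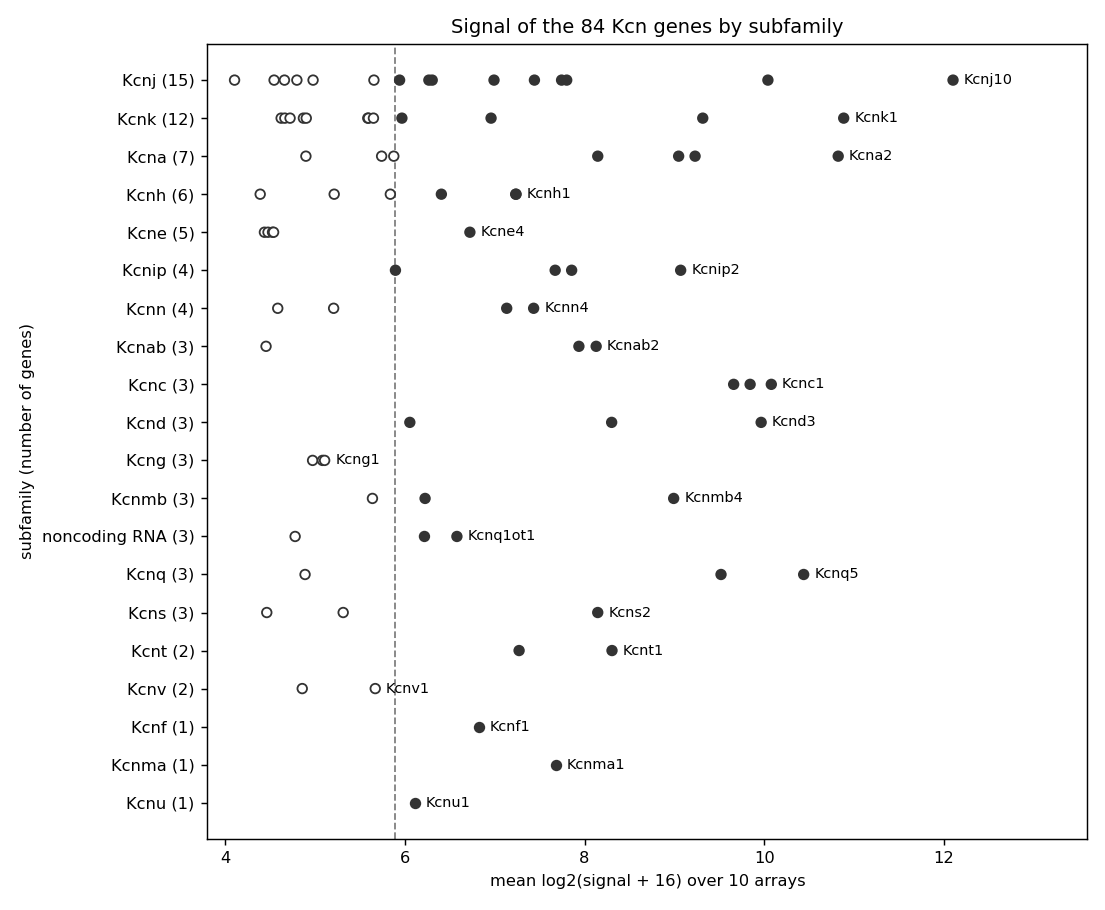
Mean log2(signal + 16) over the 10 arrays for each of the 84 potassium channel genes, 1 row per subfamily, with the brightest gene named. Filled points are the 47 tested genes, open points the 37 below the limit at 5.89 (dashed line); Kcnj10 stands farthest to the right.

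The start regions of 4 genes described next are shown: Kcnab1, which had the smallest p, with Kcna2, the brightest pore gene of the channels it joins, and the glial pair Kcnj10 and Kcnj16, whose values lay on opposite sides of 0. Each run is the 150 bases before a RefSeq transcript start, all on the plus strand of GRCm38.p6, 5′ to 3′, and capitals mark a GC box (GGGCGG on either strand). For Kcnab1, with 3 RefSeq starts, and Kcnj16, with 4, the run belongs to the start listed at the lowest coordinate, and the probe sets do not say which start was used.
Kcnab1, chr3:64949062-64949211: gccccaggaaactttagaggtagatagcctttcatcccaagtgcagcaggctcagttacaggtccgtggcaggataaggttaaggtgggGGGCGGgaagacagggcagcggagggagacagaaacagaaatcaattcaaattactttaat
Kcna2, chr3:107101417-107101566: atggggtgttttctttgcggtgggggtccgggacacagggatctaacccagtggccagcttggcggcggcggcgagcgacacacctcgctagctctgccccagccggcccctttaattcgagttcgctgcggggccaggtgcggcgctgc
Kcnj10, chr1:172341060-172341209: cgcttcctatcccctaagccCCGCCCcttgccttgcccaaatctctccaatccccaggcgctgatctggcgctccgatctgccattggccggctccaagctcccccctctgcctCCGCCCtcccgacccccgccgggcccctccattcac
Kcnj16, chr11:110967883-110968032: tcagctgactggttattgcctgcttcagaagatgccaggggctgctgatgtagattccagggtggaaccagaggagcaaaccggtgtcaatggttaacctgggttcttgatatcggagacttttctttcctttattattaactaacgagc
The Kcna2 and Kcnj10 runs are rich in G and C, at 67.3% and 68.7%, and the Kcnab1 and Kcnj16 runs less so, at 50% and 46.7%. Of the 84 genes, 64 had an entry in the RefSeq table. In the 250 bases before the first listed start, a GC box was found in 32 of the 64 (50%), against 32.9% of the 27025 genes in the table. The TATA box (TATAAA, either strand) was in 2 of the 64, Kcnj13 and Kcnj9, or 3.12%, against 13% of all. The cyclic AMP response element, searched because prostaglandin E2 receptors can act through cyclic AMP, was in 0 of the 64 as the full TGACGTCA (1.62% of all) and in 14 of the 64 (21.9%) as the half-site TGACG on either strand (17.9% of all). A full element contains the half-site on each strand. Of the 10 genes at unadjusted p below 0.05, 8 had an entry, and Kcnt2 was the 1 of them with a half-site. A match is only a match of letters in this window.

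Genes of the Kcna channels and of their Kcnab partners were above 0 in the tested members, 4 of 4 and 2 of 2 as scaled here. Over all genes tested 47.8% were above 0, and none of these Kcna and Kcnab genes passed. Among their dim members, Kcna6 was at 0.25, and Kcna3, Kcna7 and Kcnab3 were below 0, at -0.60, -0.47 and -0.43. Kcnab1 encodes a cytosolic beta subunit that speeds the inactivation of Kcna channels. Its signal was 133, 208, 134, 116 and 174 on the wild-type arrays and 446, 381, 595, 182 and 264 on the knockout arrays, in replicate order. WT replicate 2 lay above KO replicate 4, and apart from that pair every KO array was above every WT array. The means were 153 ± 37.3 (SD, n = 5) in wild-type and 374 ± 160.3 (SD, n = 5) in knockout, a log2 difference of 1.13 (SE 0.27, limma adjusted p = 0.068), the smallest p of the family. The KO arrays took the same order for Kcnab1 as for the mean striatal marker level, but the WT arrays did not. That level was 9.27, 8.95, 9.38, 7.90 and 8.30 on KO replicates 1 to 5. On WT replicates 1 to 5 it was 7.87, 7.86, 8.00, 7.40 and 7.73. WT replicate 4 was the lowest WT array in both. The highest was WT replicate 2 for Kcnab1 and WT replicate 3 for the markers. The part of the striatal markers in the Kcnab1 difference was not tested. Kcnab2, the other tested beta subunit gene, was at 0.28 (SE 0.26). Its second probe set, too dim for the test, was at -0.85 (SE 0.37), and that of Kcnab1, also dim, was at 0.26 (SE 0.25).

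Kcna2 encodes a pore subunit of axons and nerve terminals that holds down excitability. It gave 1505, 1678, 1767, 1138 and 1363 on the wild-type arrays and 1877, 2414, 3509, 1713 and 1859 on the knockout arrays. KO replicate 3 was the highest of all 10 arrays and WT replicate 4 the lowest, while KO replicate 4 lay below WT replicate 3. The log2 difference was 0.57 (SE 0.19, limma adjusted p = 0.138). A second bright Kcna2 probe set gave a difference of 0.040 (SE 0.32). Kcna4, which forms fast-inactivating channels, was at 242, 342, 268, 102 and 173 on the wild-type arrays and 325, 389.7, 429, 275 and 304 on the knockout arrays, a difference of 0.66 (SE 0.26, limma adjusted p = 0.191). WT replicate 4 was the lowest array, and WT replicate 2 was the only WT array within the KO range. Kcna1, mutated in episodic ataxia, was at 473, 810.3, 504, 418 and 455 on the wild-type arrays and 814, 499, 1574, 455 and 431 on the knockout arrays, a difference of 0.35 (SE 0.30). KO replicate 3 was the highest array, and the other KO arrays lay within or close to the WT range. Kcna5 was at 0.29 (SE 0.23) with a 95% interval of -0.19 to 0.76.

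**Figure D3:**
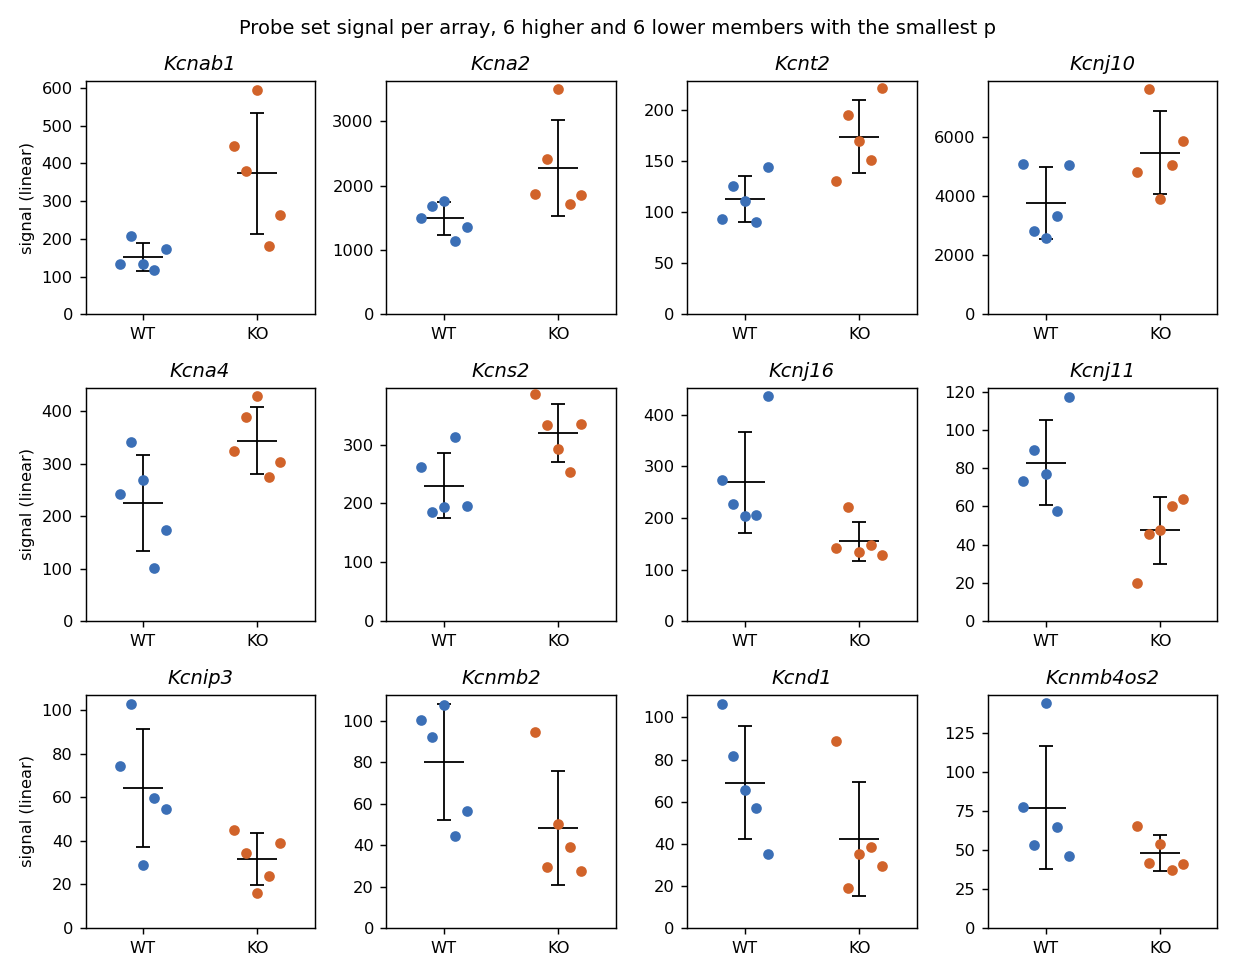
Probe set signal on a linear scale for each array (5 WT in blue, 5 KO in orange, in replicate order within a group), with the mean and SD in black, for the 6 higher and the 6 lower tested genes with the smallest p. The groups overlap in every panel; Kcnab1 runs from 116 to 208 in WT and from 182 to 595 in KO.

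Silent subunits, which form no channel alone and modify Kcnb channels, were mostly dim, with 2 of 9 tested. Kcns2 gave 262, 186, 194, 313 and 196 on the wild-type arrays and 386, 332, 293, 253 and 334 on the knockout arrays, a log2 difference of 0.46 (SE 0.19, limma adjusted p = 0.207). All 5 KO arrays lay above the WT median, but WT replicates 1 and 4 overlapped with them. Kcnf1 gave 88.6, 132, 96.3, 71.8 and 73.7 on the wild-type arrays and 85.6, 58.8, 299.8, 84.6 and 85.9 on the knockout arrays. KO replicate 3 alone stood out there, and the difference of 0.17 (SE 0.32) became -0.18 without it.

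Kcnc genes encode the fast channels of rapidly firing neurons, and their 3 tested members were at 0.32 (Kcnc1), 0.12 (Kcnc2) and -0.13 (Kcnc4). Kcnc1 gave 1156, 1004, 1173, 671 and 851 on the wild-type arrays and 1230.3, 1759, 934, 950.2 and 1263 on the knockout arrays, with a 95% interval for the difference of -0.097 to 0.74. The second bright Kcnc1 probe set was at -0.055. Kcnc4 had the narrowest spread of all tested members, with signals of 1024, 819.8, 924, 1010.4 and 954 on the wild-type arrays and 871, 828, 939.7, 776 and 913 on the knockout arrays, and an interval of -0.41 to 0.15.

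Kcnd genes carry the A-type current that delays firing, and Kcnip genes encode their calcium-binding partners. All 3 Kcnd genes were below 0 as scaled here, though Kcnd3 was at 0.24 with median centring. Kcnd3 gave 991, 1002, 991, 843 and 1193 on the wild-type arrays and 1137, 815, 1078, 922 and 936 on the knockout arrays, overlapping throughout, with a difference of -0.039 (SE 0.15). Kcnd2 gave 521, 249.6, 390.2, 238 and 346 on the wild-type arrays and 175, 327, 379, 302 and 207 on the knockout arrays, with a difference of -0.31 (SE 0.25, limma adjusted p = 0.532), and of its 3 bright probe sets 1 went the opposite way. Kcnd1, fainter, gave 106, 81.7, 65.3, 57.2 and 34.9 on the wild-type arrays and 88.6, 19.1, 35.2, 38.6 and 29.2 on the knockout arrays, a difference of -0.59 (SE 0.30, limma adjusted p = 0.318). Among the partners, Kcnip1, Kcnip2 and Kcnip4 were at 0.020, 0.13 and 0.15. Kcnip3, which also acts as a calcium-regulated transcriptional repressor, gave 74.4, 103, 29.00, 59.8 and 54.3 on the wild-type arrays and 45.04, 34.4, 15.97, 23.7 and 39.2 on the knockout arrays. That is a difference of -0.72 (SE 0.28, limma adjusted p = 0.189), the lowest of the family, in a gene just above the brightness limit (percentile 40.1). WT replicate 3 lay within the KO range. Dpp6 and Dpp10, membrane partners of Kcnd channels, were at -0.12 (SE 0.14) and 0.077 (SE 0.22).

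Kcnq genes carry the M-type current that receptors can shut off to raise firing. Kcnq5 gave 1349, 1617, 1749, 1353 and 1036 on the wild-type arrays and 1347, 1052, 3268, 1218 and 784 on the knockout arrays. KO replicate 3 was the highest and KO replicate 5 the lowest of all 10 arrays, and the difference was -0.053 (SE 0.29) with a 95% interval of -0.66 to 0.56. Kcnq3 gave 776, 1434, 684, 451 and 625 on the wild-type arrays and 815, 769.8, 1037, 496 and 519.6 on the knockout arrays, with WT replicate 2 the highest array and a difference of -0.070 (SE 0.27). Its second bright probe set was at 0.11. Of the Kcnh genes, which include the channels of the ether-à-go-go family, the 3 tested were at -0.065 (Kcnh1), -0.12 (Kcnh2) and -0.0050 (Kcnh8).

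Channels gated by calcium or sodium open after spikes and slow the firing that follows. Kcnma1, the large-conductance calcium-activated channel, gave 212, 87.9, 349.9, 155 and 181 on the wild-type arrays and 118, 327, 228, 151 and 224 on the knockout arrays. The groups covered each other, with the lowest and the highest array both in WT, and the difference was 0.12 (SE 0.31) with a 95% interval of -0.54 to 0.78. Its beta subunit genes were at 0.10 (SE 0.21) for Kcnmb4, the form of brain neurons, and at -0.62 (SE 0.29, limma adjusted p = 0.277) for Kcnmb2. Kcnmb2 gave 100.2, 92.4, 108, 44.3 and 56.6 on the wild-type arrays and 94.4, 29.5, 50.3, 39.1 and 27.5 on the knockout arrays, with KO replicate 1 among the high WT arrays. Kcnn4, an intermediate-conductance channel known from microglia and blood cells, had the largest within-group SD of the tested members, 1.37. Its signal was 7.74, 458, 298, 366 and 213 on the wild-type arrays and 75.5, 118, 77.4, 343 and 170.3 on the knockout arrays. WT replicate 1 was far below all other arrays. The difference was -0.40 (SE 0.64), -1.17 without that array and 0.26 on the 7 spiked arrays alone. Csf1r, a microglial receptor gene, was at -0.58 (SE 0.15), and the microglial marker Cx3cr1 at -0.65 (SE 0.37). The other 3 of 5 microglial markers were dim, with P2ry12 at 0.39, Tmem119 at 0.36 and Aif1 at -0.27. The part of microglia in these values was not tested. Kcnn2, a small-conductance channel of neurons, was at -0.25 (SE 0.22). The sodium-activated channel gene Kcnt2 gave 93.3, 126, 111, 90.2 and 144 on the wild-type arrays and 131, 196, 170.0, 151 and 222 on the knockout arrays, with WT replicate 5 above KO replicate 1 and a difference of 0.56 (SE 0.20, limma adjusted p = 0.154). Kcnt1 was at 0.065 (SE 0.18), and its other 2 bright probe sets were at -0.41 and -0.47.

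The inward rectifiers of glia lay on opposite sides. Kcnj10 encodes the main potassium channel of astrocytes, which clears potassium released by neurons, and Kcnj16 encodes a subunit that joins it. Kcnj10 gave 5079, 2821, 2570.4, 3306 and 5049 on the wild-type arrays and 4807, 7628, 3903, 5060.0 and 5870.5 on the knockout arrays. WT replicates 1 and 5 lay among the KO arrays, the highest array was KO replicate 2, and the difference was 0.56 (SE 0.21, limma adjusted p = 0.185). Kcnj16 gave 274, 227, 203, 205 and 436 on the wild-type arrays and 141, 221, 135, 148 and 129 on the knockout arrays. All KO arrays but replicate 2 lay below every WT array, WT replicate 5 was the highest, and the difference was -0.71 (SE 0.22, limma adjusted p = 0.117). The second bright Kcnj16 probe set went the other way, at 92.2, 187, 98.6, 153 and 118 on the wild-type arrays and 188, 133, 137, 141 and 172 on the knockout arrays, a difference of 0.25 (SE 0.22). Beside these, the mean level of the 7 astrocyte markers was 11.74 ± 0.14 (SD, n = 5) in WT and 11.52 ± 0.11 in KO, with Gfap at -0.73 (SE 0.16, limma adjusted p = 0.057), Gja1 at -0.55 (SE 0.14) and Aqp4 at -0.020 (SE 0.18). Of the other astrocyte markers, Aldoc was at -0.29 (SE 0.11) and Slc1a2 at -0.082 (SE 0.16). Aldh1l1 was at 0.0022 (SE 0.18) and Slc1a3 at 0.16 (SE 0.14). The part of these markers in the Kcnj values was not tested.

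Receptor-gated inward rectifiers, which inhibitory G proteins open, were at 0.019 (SE 0.21) for Kcnj3, -0.11 (SE 0.18) for Kcnj9 and 0.39 (SE 0.27) for Kcnj5, with Kcnj6 too dim for the main test. Kcnj9 gave 1209, 1057, 894, 1002 and 1268 on the wild-type arrays and 851, 962, 1562, 898 and 868 on the knockout arrays, and KO replicate 3 alone was above the WT range. Kcnj11 is the pore of the ATP-sensitive channel that links metabolism to firing. It gave 73.3, 89.3, 76.8, 57.6 and 117 on the wild-type arrays and 19.7, 45.6, 47.8, 60.4 and 63.9 on the knockout arrays, a difference of -0.66 (SE 0.25, limma adjusted p = 0.183). KO replicates 4 and 5 overlapped with WT replicate 4, and the other KO arrays lay below all WT arrays. Abcc8, which encodes the sulfonylurea receptor joined to it, was at -0.19 (SE 0.25). A second Kcnj11 probe set, too dim for the test, was at 0.0044 (SE 0.30).

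Some members mark other cells of the dissected tissue. Kcnj8, the ATP-sensitive channel pore of pericytes, gave 157, 157, 189, 191 and 203 on the wild-type arrays and 159, 172, 152, 149 and 83.9 on the knockout arrays, a difference of -0.32 (SE 0.20) with KO replicate 5 the lowest array. The pericyte marker level, over 3 tested genes, was 8.60 ± 0.15 (SD, n = 5) in WT and 8.61 ± 0.33 in KO. Rgs5 was at -0.22 (SE 0.15), Pdgfrb at 0.28 (SE 0.35) and Vtn at -0.035 (SE 0.31), while Anpep was dim. Kcnj13, a channel of the choroid plexus epithelium, gave 42.2, 40.7, 35.9, 59.5 and 208 on the wild-type arrays and 51.1, 32.9, 115, 200.2 and 19.1 on the knockout arrays. WT replicate 5 and KO replicates 3 and 4 were high in it, and the difference of 0.035 (SE 0.48) was small beside its within-group SD of 0.97. Ttr, the most abundant choroid plexus transcript, gave 449, 293, 471, 579.7 and 582 on the wild-type arrays and 131, 405, 8599, 440.3 and 553 on the knockout arrays, so KO replicate 3 was by far the highest array for Ttr but only the third for Kcnj13. Of the other tested choroid genes, Otx2 was at -0.70 (SE 0.24) with KO replicate 3 its lowest array, and Clic6 at 0.34 (SE 0.28), while Folr1, Kl and Aqp1 were dim. The part of choroid plexus in the Kcnj13 values was not tested.

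Leak channel genes of the Kcnk group set the resting potential. Kcnk1 gave 1561, 1437, 2083, 1699 and 1848 on the wild-type arrays and 2123, 1638, 2651, 1843 and 2166 on the knockout arrays, a difference of 0.26 (SE 0.15) with an interval of -0.065 to 0.59. KO replicate 3 was the highest array and WT replicate 2 the lowest, and KO replicates 2 and 4 lay within the WT range. The mechanosensitive and heat-sensitive channel gene Kcnk2 was at 0.14 (SE 0.18) and its relative Kcnk10 at -0.29 (SE 0.29), while Kcnk6 was at 0.055 (SE 0.27). The other 8 measured Kcnk genes were dim. Among noncoding transcripts with a Kcn symbol, which form no channel, Kcnq1ot1, the imprinted antisense RNA of Kcnq1, was at 0.42 (SE 0.22). Kcnmb4os2, an antisense RNA, gave 77.6, 53.3, 144, 64.7 and 45.96 on the wild-type arrays and 65.4, 41.6, 53.9, 37.3 and 41.1 on the knockout arrays, a difference of -0.48 (SE 0.26, limma adjusted p = 0.352). Kcnu1, known from sperm, and Kcne4 were at -0.44 (SE 0.26) and -0.21 (SE 0.20).

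The 37 dim genes had signals with medians from 0.997 (Kcnj2) to 50.03 (Kcnh3) and were taken from the limma fit over all 18193 genes. Their differences were above 0 in 12 (32.4%, against 24.8% of all 7277 dim genes) and below 0 in 25, with a median of -0.26 against -0.21 over all dim genes. That fit called 0 of them (0.0137% of dim genes), with a smallest limma adjusted p of 0.143 (Kcnk5). At unadjusted p below 0.05 there were 5, or 13.5%, near the 11.4% of all dim genes (0.934% on the higher and 10.5% on the lower side). The 1 on the higher side was Kcnk5, an acid-inhibited leak channel gene, with a mean signal of 18.4 ± 4.87 (SD, n = 5) in KO and 4.84 ± 5.15 in WT. WT replicate 1, at 13.8, lay above KO replicate 5, at 11.8, and the other Kcnk5 probe set was at -0.17 (SE 0.22). The 4 on the lower side were Kcna3, Kcne1l, Kcnj15 and Kcnq1, between -0.71 and -0.53. The array medians were lower in KO, and their part in these values was not tested.

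Partner genes of the channels outside the Kcn symbols called 0 genes as well. The tested accessory genes (anchors, regulators and auxiliary subunits) numbered 16, with a median difference of -0.0097. Of these, 2 were at unadjusted p below 0.05 on the higher side (7.95% of all genes tested) and 1 on the lower (10.1%). The lower gene was Cntnap2, which clusters Kcna channels beside the node, at 4175, 7292, 4205, 3958 and 6201 on the wild-type arrays and 4349, 2713, 3862, 3648 and 3163 on the knockout arrays, a difference of -0.51 (SE 0.18, limma adjusted p = 0.158). Dlg2, a scaffold of the same channels, was at 0.31 (SE 0.13, limma adjusted p = 0.232), and at -0.23 when its probe sets were averaged. Of 9 tested potassium transport genes, 2 were on the higher side (7.95% of all genes) and 1 on the lower side (10.1%) at that level. Their median difference was 0.16. Slc9a7, an organelle exchanger of protons for sodium or potassium, gave 114, 132, 140.1, 90.6 and 126 on the wild-type arrays and 119, 221, 274, 195 and 247 on the knockout arrays, a difference of 0.70 (SE 0.22, limma adjusted p = 0.114). Atp1b1, a beta subunit of the sodium pump and among the brightest genes of the array, was at -0.51 (SE 0.17, limma adjusted p = 0.135), and at 0.12 with quantile normalization. All 7 measured genes of cyclic nucleotide-gated channels, Hcn2 and Hcn3 among them, were dim.

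Some arrays were extreme in several members at once. KO replicate 3 was the highest of the 10 arrays in 11 of the 47 members (23.4%), against 11.8% of all genes tested. The members it led include Kcna1, Kcna2, Kcnab1, Kcnf1, Kcnj9 and Kcnq5. It was 1 of the 3 arrays without spike-in signal, and it had the highest neuronal marker level, 10.46, against 9.84 to 10.29 on the others. Its striatal and choroid plexus marker levels, 9.38 and 9.02, were also the highest of the 10 arrays, though Otx2 was lowest on it. Its preoptic and hypothalamic marker level, 8.47, was the lowest of the KO arrays, with WT replicate 5 lower still at 8.41. WT replicate 4 was the lowest in 11 members (23.4%), against 11.2% of all genes, and it had the lowest striatal marker level. The part of these array-wide values in the members' differences was not tested. Without KO replicate 3, Kcnab1 was at 0.94 and Kcna2 at 0.40. The median over tested members was -0.076.

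**Figure D4:**
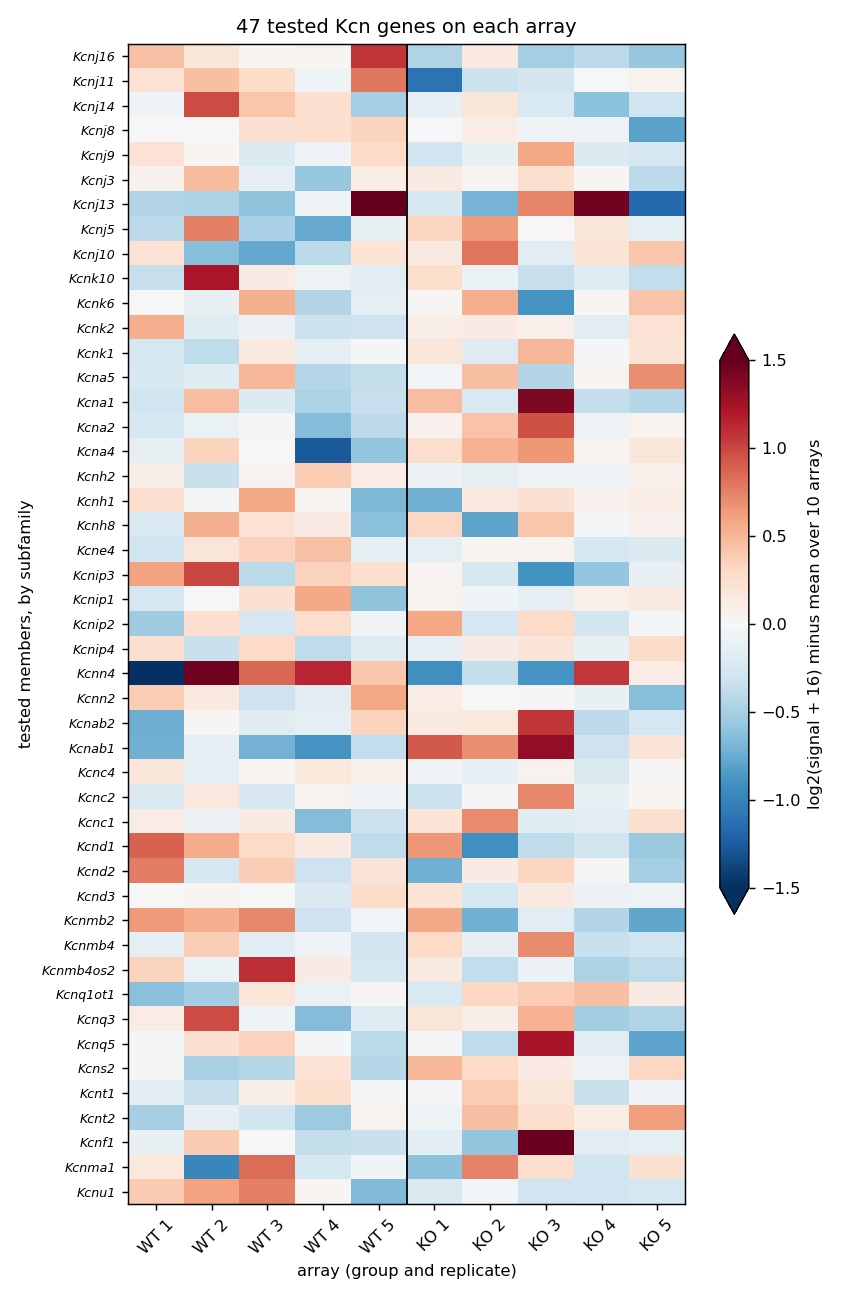
Log2(signal + 16) minus its mean over the 10 arrays for the 47 tested potassium channel genes (rows, by subfamily) on each array (columns; WT left and KO right of the line). Colours end at -1.5 and 1.5; the red cells of KO 3 in Kcna1, Kcna2, Kcnab1, Kcnf1 and Kcnq5 and the blue cell of WT 1 in Kcnn4 stand out.

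Other processing kept the direction of all 10 genes at unadjusted p below 0.05 but not their size. With quantile normalization, which gives every array the same distribution, 7 of the 10 stayed at unadjusted p below 0.05, with Kcnab1 at 1.11 and Kcnj16 at -0.71. Median centring moved the median of all genes tested from -0.019 to 0.26 and called 6 members, Kcnab1 (1.41, limma adjusted p = 0.015), Kcna2, Kcna4, Kcnj10, Kcns2 and Kcnt2. It called 983 of all genes, 952 higher and 31 lower, so these 6 calls came with a shift of the whole array. When all probe sets of a gene were averaged, Kcna2 was at 0.094, Kcns2 at 0.17 and Kcnj16 at -0.23. Of 11 tested members with several bright probe sets, 4 had all of those on the same side of 0 as the chosen probe set. On the 7 spiked arrays alone, Kcnab1 was at 1.15 and 5 of the 10 stayed at unadjusted p below 0.05.

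**Figure D5:**
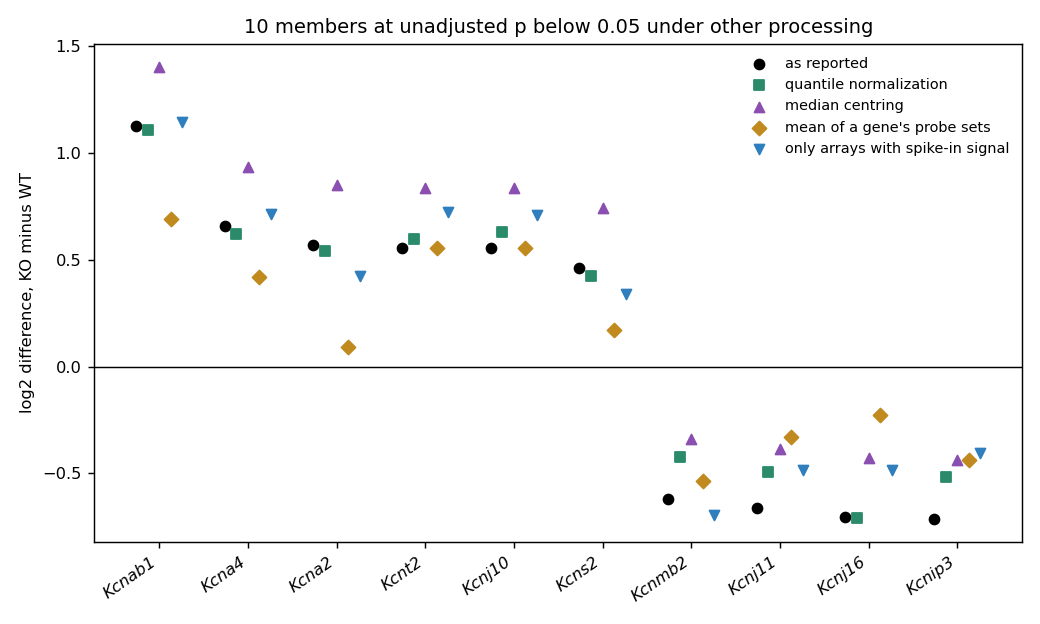
Log2 difference, KO minus WT, of the 10 potassium channel genes at unadjusted p below 0.05 as reported (black) and under other ways of processing. All points of a gene stay on 1 side of 0; median centring lifts every gene, and averaging the probe sets brings Kcna2 to 0.094.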

How the data were processed

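Tissue of 10 mice, captured by laser, gave RNA that was amplified in 2 rounds, biotin-labelled and hybridized to 1 array per mouse, following the labels' protocols. The authors deposited linear probe set intensities, computed with GCOS according to the submitters' processing notes, whose version is not given in the sources used here. Arrays have no read depth, so precision is limited by their number.

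Probe sets were named from the platform annotation: of 45101, 64 were controls, 34945 named 1 gene, 932 several and 9160 none. Each of 18193 genes took its probe set with the highest mean log2(intensity + 16). The dimmest 40% were left out at a mean of 5.89, which left 10916. On this scale a difference understates the change of a faint gene. Groups were compared with limma (lmFit and eBayes with an intensity trend), KO minus WT with genotype as the only term, at a Benjamini-Hochberg adjusted p below 0.05 over all genes tested. A second fit without the filter served the dim members. The procedure was tested on simulated data.

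The members, lists and tests were chosen with earlier results of these data known. Genes with values on every array are, by rule, Ptges, members past the threshold, the 6 higher and 6 lower with the smallest p, the 8 brightest, the 3 with the largest within-group SD, Kcnj8, Kcnj10, Kcnj13, Kcnj16, Kcnq3, Kcnma1 and Kcnd2, and the 2 genes of each partner list with the smallest p. Kcna1, the marker genes given with values and the second Kcnj16 probe set were added after their values were seen. Marker lists of other cell types stand as values beside results. The alternatives changed the pseudocount (1 or 64), the scaling (quantile or median centring), the filter, the use of probe sets and the trend, and added blocks for replicate number and for spike-in signal (minimum 100). Others used the spiked arrays alone or left out 1 array at a time. Same-numbered arrays did not deviate together (correlations of -0.15 to 0.068), so numbers were not taken as pairs. Replicates are separate mice by their labels. Analyses used R 4.3.3, limma 3.58.1, data.table (version 1.17.8), Python 3.11.15, pandas 2.3.3, numpy 2.4.6 and matplotlib 3.10.9.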

Additional observations from a re-analysis of the deposited data

Results flagged for a closer look

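In 6 of the 60 sets of 5 arrays looked at (30 named genes in each group), 1 array stood apart from the other 4 by more than Dixon's 95% limit. Chance passes that limit in about 1 in 20 sets, but the rate does not apply to these genes as a whole, since Kcnn4, Kcnj13 and Kcnf1, with 3 of the 6, were named for their large spread. Kcnj16 was at 221 on KO replicate 2, with the next highest array of the group at 148. Kcnj9 was at 1562 on KO replicate 3, with the next highest array of the group at 962. Kcnn4 was at 7.74 on WT replicate 1, with the next lowest array of the group at 213. Kcnj13 was at 208 on WT replicate 5, with the next highest array of the group at 59.5. Kcnf1 was at 299.8 on KO replicate 3, with the next highest array of the group at 85.9. Kcnj8 was at 83.9 on KO replicate 5, with the next lowest array of the group at 149. KO replicate 3 accounts for 2 of the 6, Kcnj9 and Kcnf1. Without the array that stood apart, the log2 differences were -0.83 for Kcnj16, -0.27 for Kcnj9, -1.17 for Kcnn4, 0.41 for Kcnj13, -0.18 for Kcnf1 and -0.16 for Kcnj8. By limma, 0 of these 6 genes passed the adjusted threshold with or without those arrays, and Kcnj16 was at unadjusted p below 0.05 in each of the 10 fits that left out 1 array.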

How the results depend on the processing

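By limma, 0 potassium channel genes passed the adjusted threshold under each setting run except median centring, which called 6. In every fit that left out 1 array the count was 0 of 47, with 7 to 12 at unadjusted p below 0.05 and 0 to 2 whose groups did not overlap (2 without WT replicates 2, 3 or 5 or KO replicate 4, and 1 without WT replicate 4 or KO replicates 1 or 2, beside 5.9% to 8.35% of all genes). The median over tested members was -0.076 to 0.081 in those fits and 0.30 with median centring, against 0.26 over all genes there. The count at unadjusted p below 0.05 was 6 of 28 with the dimmest 60% left out, beside 19.3% of all genes there. Members whose groups did not overlap numbered 3 with median centring (9.57% of all genes), 1 with probe sets averaged (3.76%) and 7 on the 7 spiked arrays alone (13.2%, with fewer arrays to overlap). Over all genes the 12 calls became 983 with median centring, 88 with the dimmest 60% left out, 3 with no filter, 1 with probe sets averaged, and 8 with probe sets ending in _x_at used last. They became 0 with quantile normalization, without a trend, with the spike-in block and on the spiked arrays alone, where 15.4%, 17.9%, 18.1% and 14.4% of genes were at unadjusted p below 0.05. Leaving out 1 array gave 0 to 35: 35 when WT replicate 5 was left out, 32 for WT replicate 3, 21 for KO replicate 1, 5 for KO replicate 4 and 0 for each other array, with 14.7% to 19.9% of genes at unadjusted p below 0.05. With the replicate number as a block, 1 gene and 0 members were called and 11 members were at unadjusted p below 0.05. The block changed no member's call, and no array correlated best with its own number. The causes were not tested.

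These log2 differences turned sign. With quantile normalization, Atp1b1 was at 0.12. With probe sets averaged, Dlg2 was at -0.23, Kcnc1 at -0.11, Kcnd3 at 0.054, Kcnf1 at -0.071, Kcnq3 at 0.022 and Kcnq5 at 0.025. With median centring, Kcnc4 was at 0.15, Kcnd3 at 0.24, Kcnj9 at 0.17, Kcnq3 at 0.21 and Kcnq5 at 0.23. With the spike-in block, Kcnd3 was at 0.0016, Kcnq3 at 0.057 and Kcnq5 at 0.052. On the 7 spiked arrays alone, Kcnd3 was at 0.010, Kcnf1 at -0.10, Kcnma1 at -0.23, Kcnn4 at 0.26 and Kcnq3 at 0.030. With a pseudocount of 1, Kcnj13 was at -0.0030. Leaving out each array in turn gave -0.099 to 0.024 for Kcnd3, -0.18 to 0.34 for Kcnf1, -0.32 to 0.41 for Kcnj13, -0.11 to 0.35 for Kcnma1, -0.24 to 0.17 for Kcnq3, -0.37 to 0.14 for Kcnq5 and -0.027 to 0.47 for Ptges. The 10 members at unadjusted p below 0.05 kept their direction under every setting run. Signal over background limits the 37 dim genes.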
